A study of Mus musculus with 4 samples.

Results

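The collagen chain genes are the genes whose symbol is Col, a type number, the letter a and a chain number. The rule matched 44 of the 24421 genes measured, and each was sorted by the known class of its collagen: 11 fibrillar chains, 9 network chains, 6 beaded filament chains, 4 transmembrane chains, the anchoring fibril chain Col7a1, 9 fibril-associated chains, 2 multiplexins (Col15a1 and Col18a1) and 2 others. Their RNA was measured by RNA-seq in 4T07, a line of murine mammary carcinoma cells of the strain Balb/cfC3H. There were 2 libraries from cells with the genotype control (4T07-CTL) and 2 from cells with the genotype Six2 Overexpression (4T07-Six2), Six2 being a homeobox transcription factor. All cells were grown in high-glucose DMEM with calf serum and lysed 48 hours after plating, with no other treatment. The labels name neither a vector nor a promoter, do not say how many clones were used, and do not say whether replicates were separate cultures, so each p-value below reflects only how far these libraries differ from each other, a spread that may be technical.

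Collagens are secreted proteins in which chains wind around each other into a triple helix. Fibrillar collagens build the ropes of connective tissue, and fibril-associated collagens decorate them. Network collagens form sheets, above all type IV collagen of the basement membrane under mammary epithelium. Beaded type VI filaments link the basement membrane to the matrix around it, type VII collagen anchors epithelium to the matrix below, and transmembrane collagens sit in the cell surface. A chain is secreted only as part of a trimer, so partner chains of a type are described together.

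The values are RPKM, reads per kilobase of gene scaled to the read total of the library, so that levels can be compared between genes per length. The read totals behind them were 43110985 and 41881864 for control replicates 1 and 2, and 49910629 and 81524250 for the libraries labelled Six2, replicates 1 and 2. Six2 itself was listed at 0 in 3 libraries and at 0.0285 RPKM in the library labelled Six2 replicate 1, about 3.02 reads on its annotated transcript of 2119 bases, so the values counted for this gene show no overexpression, and groups are named here by their labels. Of 7 markers of mammary epithelium 3 were tested: Krt8 lay between 607 and 1059 RPKM, Krt18 between 389 and 800 RPKM, and the epithelial cadherin gene Cdh1 was at 14.6 and 8.40 RPKM in the control libraries and 0.186 and 0.103 RPKM in those labelled Six2 (limma adjusted p = 0.0592). These 7 summed to 1875 and 1225 RPKM and to 1663 and 997 RPKM. Nearly all of this was Krt8 and Krt18, which overlapped between the groups. Epcam was below 1 RPKM in each library and, like Cdh1, lower in Six2-labelled cells (0.720 and 0.684 against 0.214 and 0.0833 RPKM). Trp63 was near 0 and also lower (0.0766 and 0.0513 against 0.00331 and 0.00405 RPKM). Krt5 and Krt14 were at or near 0. Of 8 fibroblast markers only Pdgfra was tested (4.78 to 8.85 RPKM), and Lum and Thy1 were at 0. The summed level of the fibroblast markers was 10.0 and 5.21 RPKM in the control libraries and 7.42 and 5.17 RPKM in the libraries labelled Six2. The 5 endothelial markers summed to 0.144 RPKM at most, Kdr being at 0. Among 5 leukocyte markers Ptprc was at 0.00433 RPKM or less and Cd68 was at 4.99 to 12.4 RPKM. The part of such cells, or of the lower Cdh1, Epcam and Trp63, in the collagen values was not tested.

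The bases before the start of the RNA are shown first for the chains that stand out below: 5 chains whose control and Six2-labelled libraries did not overlap and that passed the filter on low values. The sequences are RefSeq promoter windows of GRCm38.p6, written 5′ to 3′ on the strand of the gene and ended before the first transcribed base of the annotated gene, or before an exon for the inner start of Col9a1. Col9a1 has 2 annotated starts in that table, and the deposited gene values do not separate them. Capitals mark matches on either strand to 5 motifs: the TATA box, searched as TATAAA; the CCAAT box, searched by those letters; the GC box, searched as GGGCGG; the AP-1 site, searched as TGANTCA; and the MEF3 core, which Six2 and its relatives bind, searched as TCAGGTT. Matches in capitals do not overlap each other.
Col9a1 outer start, chr1:24177360-24177588, plus strand: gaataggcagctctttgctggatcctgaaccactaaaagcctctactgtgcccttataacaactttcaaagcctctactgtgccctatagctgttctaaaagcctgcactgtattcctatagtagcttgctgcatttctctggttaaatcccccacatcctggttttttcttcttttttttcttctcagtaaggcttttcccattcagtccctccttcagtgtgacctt
Col9a1 inner start, chr1:24194953-24195186, plus strand: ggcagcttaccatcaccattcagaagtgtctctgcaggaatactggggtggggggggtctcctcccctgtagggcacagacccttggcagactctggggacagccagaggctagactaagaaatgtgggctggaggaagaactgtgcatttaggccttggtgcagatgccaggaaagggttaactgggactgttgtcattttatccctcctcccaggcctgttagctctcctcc
Col18a1, chr10:77166549-77166780, minus strand: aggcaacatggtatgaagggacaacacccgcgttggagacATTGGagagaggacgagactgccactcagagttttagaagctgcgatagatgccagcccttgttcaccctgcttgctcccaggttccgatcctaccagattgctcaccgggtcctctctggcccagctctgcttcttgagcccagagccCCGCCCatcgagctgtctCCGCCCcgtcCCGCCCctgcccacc
Col7a1, chr9:108953336-108953585, plus strand: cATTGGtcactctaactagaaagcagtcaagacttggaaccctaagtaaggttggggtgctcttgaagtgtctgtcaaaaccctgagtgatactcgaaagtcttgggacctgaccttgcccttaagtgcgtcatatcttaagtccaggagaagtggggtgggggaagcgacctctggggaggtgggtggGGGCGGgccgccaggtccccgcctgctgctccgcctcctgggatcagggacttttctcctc
Col5a1, chr2:27886175-27886380, plus strand: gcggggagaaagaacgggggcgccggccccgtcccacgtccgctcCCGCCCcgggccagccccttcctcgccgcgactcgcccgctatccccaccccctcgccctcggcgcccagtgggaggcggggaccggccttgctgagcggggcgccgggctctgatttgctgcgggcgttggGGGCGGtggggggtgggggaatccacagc
Col8a1, chr16:57754738-57754987, minus strand: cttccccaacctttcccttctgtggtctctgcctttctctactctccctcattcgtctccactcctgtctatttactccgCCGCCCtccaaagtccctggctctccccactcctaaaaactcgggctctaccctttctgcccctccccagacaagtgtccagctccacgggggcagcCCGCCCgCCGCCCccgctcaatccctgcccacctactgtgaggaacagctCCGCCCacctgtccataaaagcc

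The windows of Col7a1, Col5a1, Col8a1 and Col18a1 hold a GC box, and those of Col7a1 and Col18a1 also a CCAAT box. The printed bases before both starts of Col9a1 hold none of the 5 motifs, but the whole window of its inner start holds 1 CCAAT box outside them. Over the whole windows of 300 bases, 35 of the 44 chains had an entry, with 38 windows. A GC box was found in 23 of these 38 (35.7% of all 32851 windows), a CCAAT box in 13 (37.4% of all), a TATA box in 5 (13.6% of all), an AP-1 site in 1, that of Col6a1 (7.81% of all), and the MEF3 core in 1, that of Col19a1 (4.07% of all), a chain with 0 reads. A match is a stretch of letters, not a known site.

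Most of the collagen RNA of these cells came from a few genes of the network, multiplexin, fibril-associated and beaded classes. Summed over all 44 chains the level was 394 and 346 RPKM in the control libraries and 404 and 335 RPKM in the libraries labelled Six2. The groups overlapped fully in this sum, at 369.9 ± 34.1 and 369.8 ± 48.8 RPKM (SD, n = 2 per group). Network chains made up 52.8% and 59.3% of the sum in control cells and 50.0% and 54.8% in Six2-labelled cells, shares that overlap. Fibrillar chains made up 3.52% and 3.34% in control cells and at most 2.55% in a Six2-labelled library, and the 4 transmembrane chains summed to at most 0.381 RPKM. Fibrillar chains summed to 13.9 and 11.5 RPKM in the controls and to 8.50 and 8.55 RPKM in Six2-labelled cells, while multiplexins summed to 56.2 and 47.4 RPKM and to 73.6 and 65.2 RPKM. The groups also did not overlap for the network sum (208 and 205 against 202 and 184 RPKM), the fibril-associated sum (44.3 and 35.0 against 70.9 and 46.0 RPKM), the transmembrane sum or the single anchoring fibril chain, and overlapped for the beaded sum (64.6 and 41.3 against 47.6 and 29.8 RPKM). An exact two-sided permutation test of 2 libraries against 2 gave 0.333, the smallest p it allows, for each of the 6 classes that did not overlap. These class sums largely repeat single chains. Col5a1, Col18a1 and Col17a1 made up most of the fibrillar, multiplexin and transmembrane sums. Col8a1 and Col9a1 were the only tested network and fibril-associated chains whose groups lay apart.

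**Figure D1:**
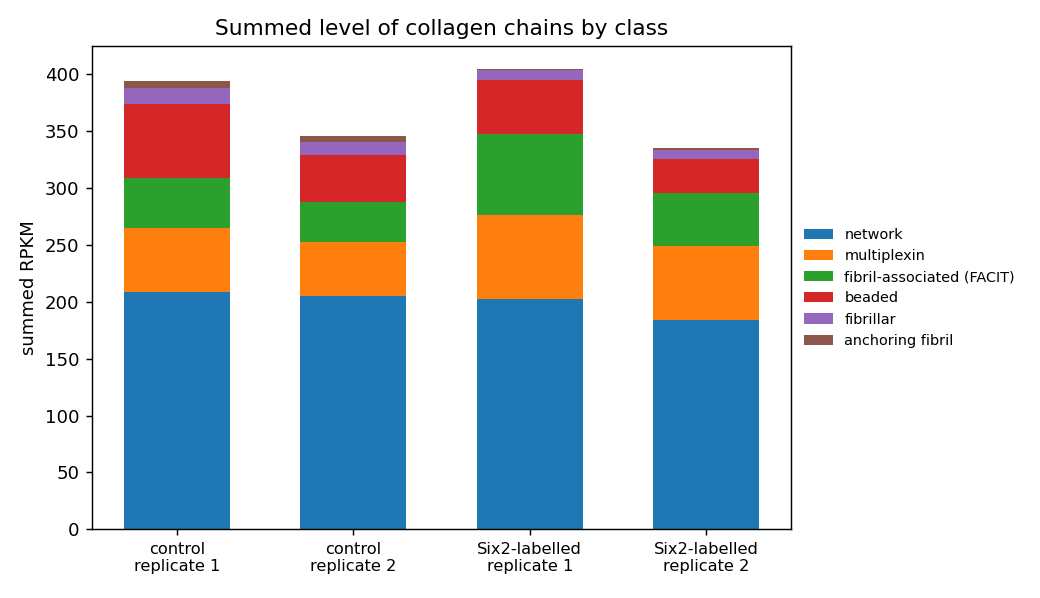
Summed RPKM of collagen chains (vertical axis) in each library (bars), split by class. The totals are 394, 346, 404 and 335 RPKM, and the network class is the largest part of every bar; transmembrane and other chains are too low to draw.

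Of the 44 chains, 13 reached 1 RPKM in at least 2 libraries and were tested with limma on log2(RPKM + 1), in a fit over all 10654 genes that reached this level. Of the 13, 12 did so in all 4 libraries, and Col6a2 in 3. Among the other 31 chains, 6 were at 0 in every library, 11 had fewer than 10 reads in each library, and 14 had 10 reads or more in at least 1. At the edge of the filter, Col6a2 had a second-highest value of 1.67 RPKM and was tested, and Col14a1 had one of 0.541 RPKM and was not. In bulk RNA, fewer cells with a transcript and less transcript per cell cannot be told apart.

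In the fit on group alone, none of the 13 chains passed at a limma adjusted p of 0.05, where 0.0282% of all genes tested were higher and 0.0845% lower. At an unadjusted limma p of 0.05, 2 chains were higher and 3 lower (7.36% and 9.66% of all genes tested). The same 5 chains had all 4 libraries apart by group: Col9a1 and Col18a1 higher in the libraries labelled Six2, and Col5a1, Col7a1 and Col8a1 lower. That is 38.5% of the 13 chains, where 47.4% of all genes tested had all 4 libraries apart (21.9% higher and 25.5% lower). By this measure the share is no greater than that of genes in general. By the unadjusted p the same 38.5% was a larger share than the 7.36% and 9.66% of all genes together. The 13 chains are few, and neither share was tested. The median difference of the 13 chains was -0.10 on the log2(RPKM + 1) scale, and that of all genes tested was -0.01.

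**Figure D2:**
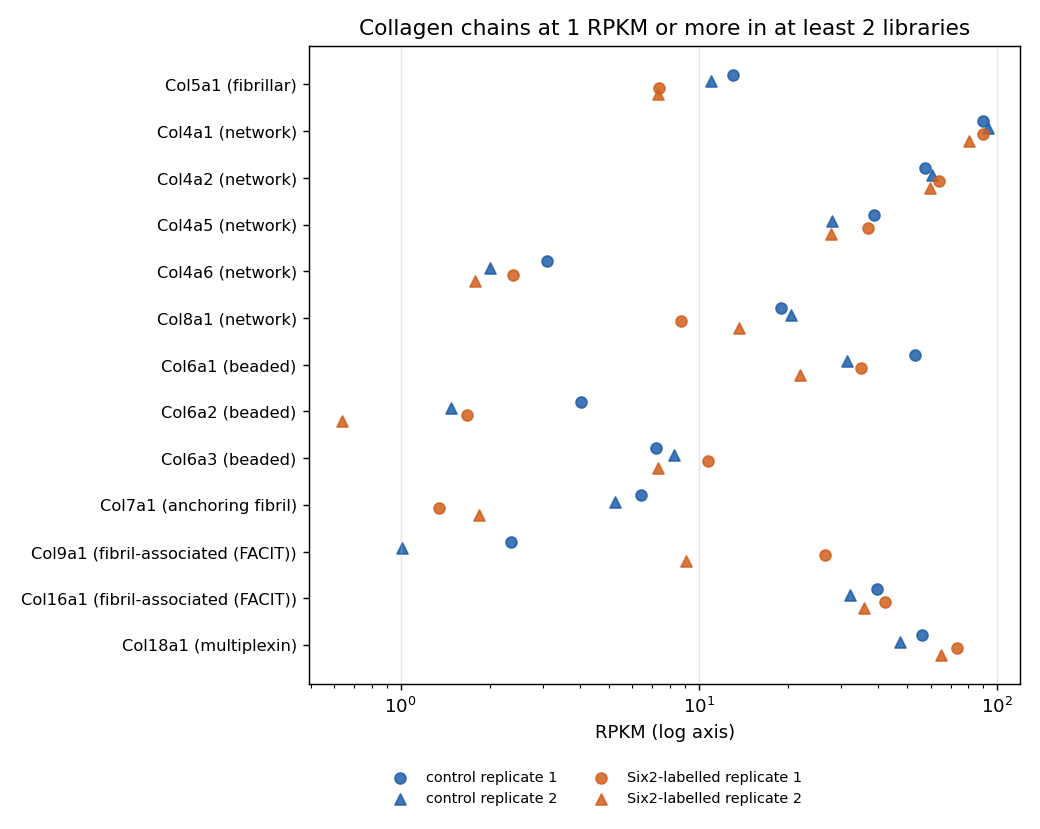
RPKM on a log axis for the 13 tested collagen chains (rows, with class) in the 4 libraries; colour is the group and marker shape the replicate number. Col4a1 is the highest chain in every library, and the groups lie apart for Col5a1, Col8a1, Col7a1, Col9a1 and Col18a1.

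Among fibrillar chains only Col5a1, an initiator of collagen fibril assembly, was expressed above the filter (GRCm38 chromosome 2, 27886425 to 28039514, plus strand). Its values were 13.1 and 11.0 RPKM in the control libraries and 7.39 and 7.29 RPKM in those labelled Six2. The Six2-labelled libraries were close to each other and below both controls, a ratio of 0.610 of the means, with a difference of -0.64 on the log2(RPKM + 1) scale (SE 0.124, limma adjusted p = 0.147).
Col5a2, its usual partner in type V collagen, had 0 reads in all 4 libraries, as did Col3a1, the type III chain of soft tissue, which neighbours Col5a2 on chromosome 1. Col11a1 was at 0 as well. For the 6 chains at 0, among them Col4a3, Col19a1 and Col23a1, 3 reads on the longest annotated transcript would be at most 0.0132 RPKM in any library, a limit for counting error only.
Col5a3, the third type V chain, was far lower than Col5a1 and differed the other way, with 23 and 32 reads in control cells (0.0877 and 0.126 RPKM) and 143 and 430 reads in Six2-labelled cells (0.471 and 0.867 RPKM). The ratio of the means was 6.27. The chains of type I collagen, the main collagen of stroma, were near 0: Col1a1 was at 0.109 and 0.0559 RPKM in the controls and at 0.0299 and 0.0131 RPKM in Six2-labelled cells, from 22 reads at most, and Col1a2 was at 0.0139 RPKM or less.
Col2a1, the cartilage fibril chain, had 24 and 7 reads in control cells (0.108 and 0.0326 RPKM) and 87 and 58 reads in Six2-labelled cells (0.340 and 0.139 RPKM). Col11a2 was at 0.207 and 0.175 RPKM against 0.111 and 0.129 RPKM. Col27a1 had 11 and 4 reads against 1 and 3 (0.0334 and 0.0125 against 0.00262 and 0.00482 RPKM). Col24a1 overlapped between the groups. Of the 6 fibrillar chains below the filter with 10 reads or more, the groups thus lay apart for 2 higher (Col2a1, Col5a3) and 3 lower (Col1a1, Col11a2, Col27a1). Of all untested genes with 10 reads or more in 1 library, 17.7% lay apart higher and 30.1% lower.

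The basement membrane chains Col4a1 and Col4a2, which wind together into the common form of type IV collagen, were among the 3 most abundant chains in every library, Col4a1 being the highest, and lie head to head on chromosome 8 (11198423 to 11312826, minus strand, and 11312805 to 11449287, plus strand). The annotated genes overlap by 22 bases, and no source used here gives the strand setting of the counting, so reads in those bases cannot be assigned. Col4a1 was at 89.8 and 93.6 RPKM in the controls and at 90.2 and 80.8 RPKM in Six2-labelled cells. Col4a2 was at 57.7 and 60.8 RPKM and at 63.9 and 59.6 RPKM. Both overlapped between the groups, with differences of -0.10 (SE 0.102) and 0.06 (SE 0.0954) on the log2(RPKM + 1) scale and limma adjusted p of 0.682 and 0.808. The level of Col4a1 over that of Col4a2 was 1.56 and 1.54 in control cells and 1.41 and 1.36 in Six2-labelled cells. This ratio moved little across the 4 libraries, although the control ratios lay above the others.
The other expressed type IV pair is on the X chromosome, also head to head. Col4a5 (141475385 to 141689234, plus strand) was at 38.7 and 28.1 RPKM in the controls and at 37.0 and 27.8 RPKM in Six2-labelled cells, a limma difference of -0.04 (SE 0.221, adjusted p = 0.950). Col4a6 (141165403 to 141474076, minus strand) was at 3.11 and 1.99 RPKM and at 2.39 and 1.77 RPKM, a difference of -0.19 (SE 0.215, adjusted p = 0.712). In each group replicate 1 was above replicate 2 for this pair, by more than the groups differed. Col4a5 was 12.5 to 15.7 times the level of Col4a6 in the 4 libraries. The remaining pair, Col4a3 and Col4a4, whose chains join Col4a5 in the kidney filter, held 1 read in all.

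Col8a1 encodes a short-chain network collagen of vessel walls and of the membrane behind the cornea (chromosome 16, 57624258 to 57754737, minus strand). It was at 19.0 and 20.4 RPKM in the controls and at 8.75 and 13.7 RPKM in Six2-labelled cells, where replicate 1 was the lowest library. The difference was -0.79 on the log2(RPKM + 1) scale (SE 0.223, limma adjusted p = 0.212). The 317 tested genes of chromosome 16 had a median difference of -0.22, and with chromosome medians removed, an alternative chosen after the data were seen, Col8a1 differed by -0.56 (adjusted p = 0.451). Without Six2 replicate 1 the difference was -0.49 (adjusted p = 0.427). Its partner Col8a2 had 1 read in all, and Col10a1, the collagen of growth plate cartilage, had 2 reads at most in a library.

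The beaded filament chains of type VI collagen assemble as a trimer of Col6a1, Col6a2 and Col6a3. Their RNA was far from equal in level, and each chain overlapped between the groups. Col6a1 (chromosome 10, 76708792 to 76726168, minus strand) was at 53.3 and 31.6 RPKM in the controls and at 35.1 and 21.8 RPKM in Six2-labelled cells. Col6a2, its neighbour on chromosome 10 (76595762 to 76623630, same strand), was at 4.03 and 1.47 RPKM and at 1.67 and 0.635 RPKM. Both were highest in control replicate 1, lowest in the library labelled Six2 replicate 2, and close to each other in the libraries between. Col6a3 (chromosome 1, 90765923 to 90843971, minus strand), the chain with the long globular ends, was at 7.18 and 8.25 RPKM and at 10.8 and 7.29 RPKM, with no such order.
The differences on the log2(RPKM + 1) scale were -0.55 (SE 0.347) for Col6a1, -0.76 (SE 0.437) for Col6a2 and 0.18 (SE 0.206) for Col6a3, with limma adjusted p of 0.494, 0.461 and 0.714. The values of Col6a1 and Col6a2 depended on which library was left out. For both chains replicate 2 was below replicate 1 in each group, so leaving out 1 library makes the replicate numbers unequal between the groups. Col6a1 differed by -0.18 without control replicate 1, -0.22 without Six2 replicate 2, -0.88 without Six2 replicate 1 and -0.92 without control replicate 2. Col6a2 differed by -0.24 without control replicate 1, -0.40 without Six2 replicate 2, -1.27 without control replicate 2, -1.16 with a pseudocount of 0.1 and -1.35 with voom on recovered reads, and it passed in none of these. Col6a1 was 13.2, 21.4, 21.1 and 34.3 times the level of Col6a2 in control replicates 1 and 2 and the libraries labelled Six2, replicates 1 and 2. It was 7.43, 3.83, 3.26 and 2.99 times the level of Col6a3 in the same order. The length behind the RPKM of Col6a1 was recovered as 1988 bases, about 2.06 times shorter than its longest annotated transcript of 4100 bases; a factor common to its reads and length would leave its RPKM as it is. The type VI chains Col6a4, Col6a5 and Col6a6 were at 0.0871 RPKM or less; Col6a6 was listed at 0 in both controls and at 0.0375 and 0.00985 RPKM in the Six2-labelled libraries.

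Col7a1, the sole chain of the anchoring fibrils that tie epithelial basement membrane to the matrix below, had the lowest ratio among the tested chains (chromosome 9, 108953586 to 108984875, plus strand). It was at 6.40 and 5.24 RPKM in the controls and at 1.34 and 1.84 RPKM in Six2-labelled cells, from 617 to 2538 reads. Both Six2-labelled libraries were far below both controls, and the control mean was 3.66 times the other. The difference of -1.40 on the log2(RPKM + 1) scale (SE 0.166) had a limma adjusted p of 0.0937 and did not pass, and it lay between -1.54 and -1.26 when any 1 library was left out. Differences of 1 or more in either direction were seen for 2.32% of all genes tested.
Col17a1, a transmembrane collagen of hemidesmosomes, where type VII fibrils attach, was below the filter at 0.343 and 0.375 RPKM in the controls and 0.199 and 0.219 RPKM in Six2-labelled cells. The groups lay apart there too. The other transmembrane chains were at or near 0: Col13a1 was above 0 only in Six2 replicate 1 (0.00633 RPKM), Col25a1 only in control replicate 2 (0.00638 RPKM), and Col23a1 in no library.

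Col9a1 had the largest difference of any tested chain. It encodes a chain of the fibril-associated type IX collagen, best known from cartilage and the vitreous (chromosome 1, 24177610 to 24252684, plus strand), and its start regions are the first shown above. It was at 2.34 and 1.01 RPKM in the controls and at 26.5 and 9.10 RPKM in Six2-labelled cells, from 418, 176, 5484 and 3073 reads. The groups did not overlap, but within each group replicate 1 was more than 2-fold above replicate 2. The ratio of the means was 10.6. The difference was 2.68 on the log2(RPKM + 1) scale (SE 0.558, limma adjusted p = 0.156). Without the library labelled Six2 replicate 2 it was 3.41 and passed (adjusted p = 0.0144); it was 1.96 without Six2 replicate 1 (0.0866), 3.05 without control replicate 1 (0.278) and 2.32 without control replicate 2 (0.212). Chromosome 1 had a median difference of 0.32 over 583 tested genes, and with chromosome medians removed Col9a1 differed by 2.37 (adjusted p = 0.240).
The partner chains of type IX collagen were low, and neither had its groups apart. Col9a3 was at 0.513 and 0.487 RPKM in the controls and at 0.803 and 0.267 RPKM in Six2-labelled cells, and Col9a2 had 5 reads at most in a library. Col9a1 was 4.56 and 2.08 times the level of Col9a3 in control cells and 33.0 and 34.0 times in Six2-labelled cells. The 4 cartilage markers Acan, Matn1, Matn3 and Comp summed to 0.108 and 0.0191 RPKM in the controls and to 0.0365 and 0.0183 RPKM in Six2-labelled cells; Matn1 was at 0 in all 4 libraries, and Acan was at 0 in all but control replicate 2.

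**Figure D3:**
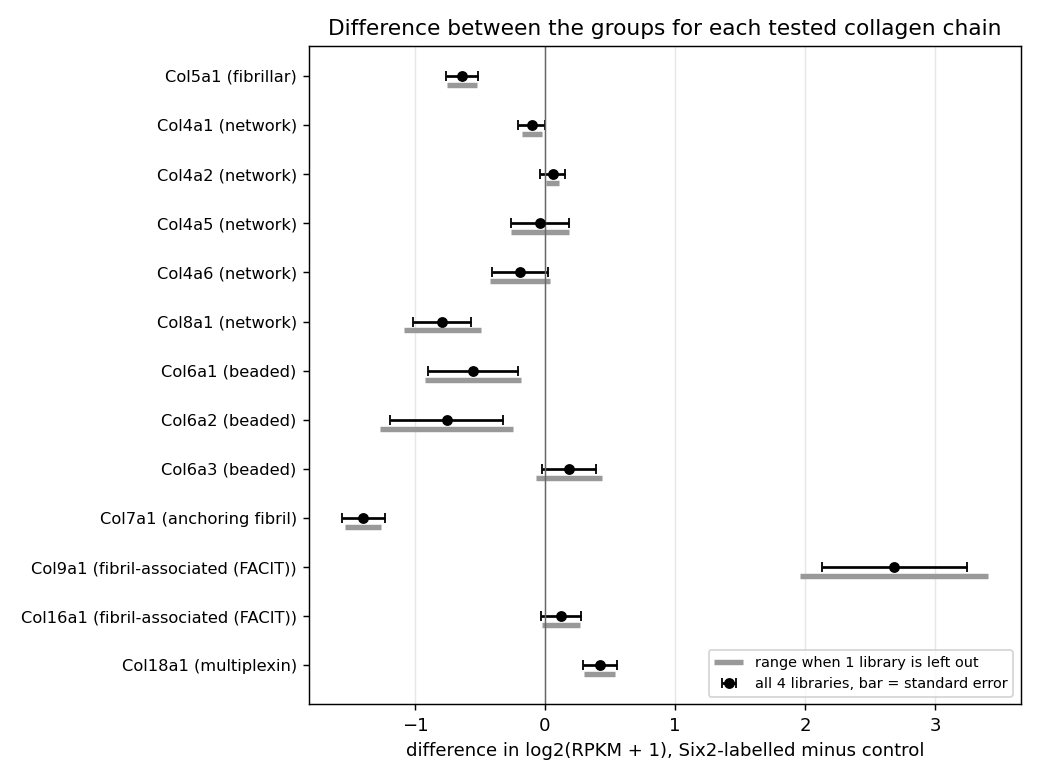
Difference in log2(RPKM + 1), Six2-labelled minus control (horizontal axis), for the 13 tested chains; black points are the fit to all 4 libraries with its standard error, and grey bars span the values when 1 library is left out. Col9a1 lies at 2.68 and Col7a1 at -1.40, and the bars of Col4a5, Col4a6, Col6a3 and Col16a1 cross 0.

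Col16a1, a fibril-associated collagen that binds integrins, was the other tested chain of this class (chromosome 4, 130047840 to 130099283, plus strand). It was at 39.6 and 32.3 RPKM in the controls and at 42.3 and 35.9 RPKM in Six2-labelled cells, which overlap (difference 0.12, SE 0.152, limma adjusted p = 0.744). Col12a1, which coats type I fibrils, was low but showed the largest ratio in the opposite direction from Col9a1 among chains with reads in every library, with 105 and 153 reads in control cells (0.208 and 0.312 RPKM) and 7 and 28 reads in Six2-labelled cells (0.0120 and 0.0293 RPKM). The control mean was 12.6 times the other. Col14a1, a relative of Col12a1, was at 1.06 and 0.504 RPKM against 0.541 and 0.213 RPKM, which overlap. Col20a1 was at 0.161 and 0.165 RPKM against 0.187 and 0.199 RPKM, and Col22a1 overlapped.

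The multiplexin Col18a1 encodes a basement membrane collagen whose end fragment is endostatin (chromosome 10, 77052178 to 77166548, minus strand). It was at 55.9 and 47.2 RPKM in the controls and at 73.5 and 65.2 RPKM in Six2-labelled cells. Both Six2-labelled libraries lay above both controls, by a ratio of 1.34 of the means and a difference of 0.42 on the log2(RPKM + 1) scale (SE 0.132, limma adjusted p = 0.238). Its relative Col15a1 was low and lay the other way, at 0.297 and 0.171 RPKM in the controls and 0.136 and 0.0530 RPKM in Six2-labelled cells. The chains of neither large class, Col26a1 and Col28a1, had 4 reads at most in a library.

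**Figure D4:**
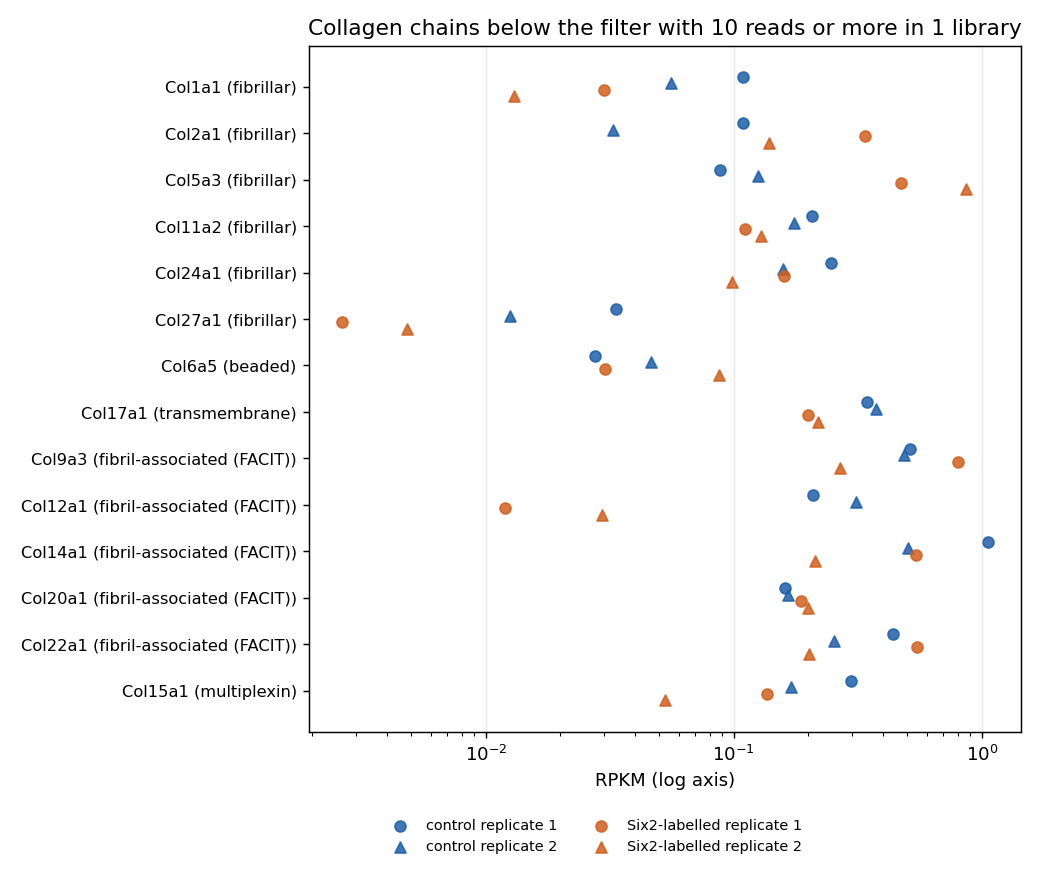
RPKM on a log axis for the 14 collagen chains below the filter that had 10 reads or more in 1 library; colour is the group and marker shape the replicate number. Control points lie above Six2-labelled points for 6 chains, Col12a1 among them, and below them for Col2a1, Col5a3 and Col20a1.

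Among these 14 low chains the groups lay apart for 6 lower and 3 higher and overlapped for 5. Over all 2281 such untested genes the shares were 30.1% lower and 17.7% higher. These chains were not tested.

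The libraries of each group also differed between themselves. For 8 of the 13 tested chains replicate 2 was below replicate 1 in both groups (43.2% of all genes tested), and for Col8a1 alone it was above in both (39.7% of all genes tested). For 5 chains it was at least 1.25-fold below in both groups, against 12.5% of all genes tested; this fold was chosen after the values were seen. They were Col4a5, Col4a6, Col6a1, Col6a2 and Col9a1. Replicate 2 over replicate 1 was 0.365 in control cells and 0.381 in Six2-labelled cells for Col6a2, 0.592 and 0.622 for Col6a1, 0.727 and 0.752 for Col4a5, and 0.433 and 0.343 for Col9a1. Col4a1 and Col4a2 had ratios between 0.895 and 1.05. The labels name no batch for the replicate numbers, and the source of these replicate differences was not tested. How far they went together between the groups over all genes tested is given below, with the alternative fits.

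**Figure D5:**
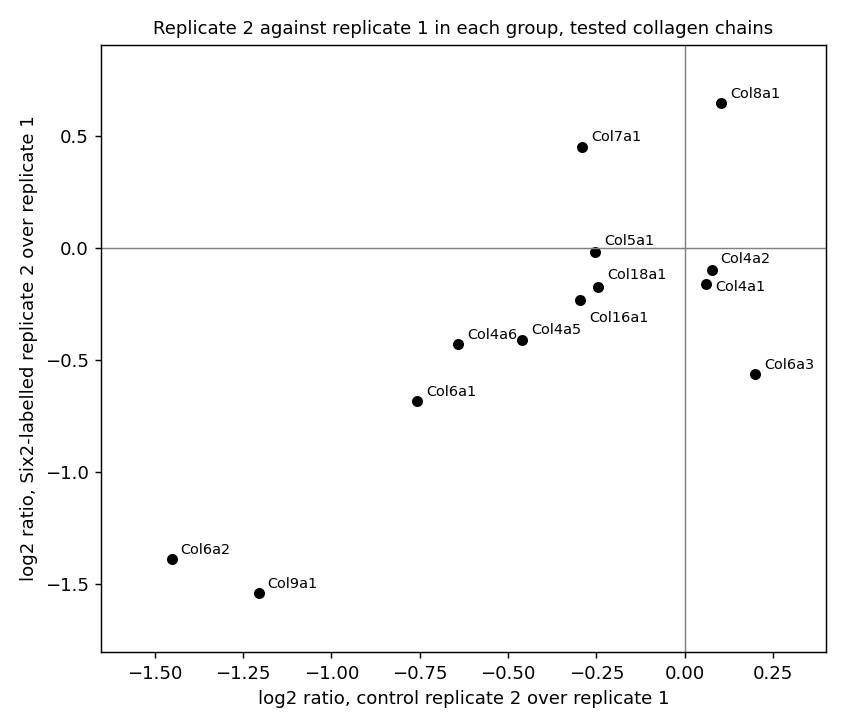
Log2 ratio of replicate 2 over replicate 1 in control cells (horizontal axis) and in Six2-labelled cells (vertical axis) for the 13 tested chains. Col6a2, Col9a1 and Col6a1 lie farthest into the lower left, and Col8a1 is the only chain in the upper right.

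Genes that fold, process, bind and degrade collagen were read from the same fit. Of 84 such genes 51 were tested and none passed (limma adjusted p of 0.05; 0.0282% of all genes tested were higher and 0.0845% lower); at an unadjusted p of 0.05, 6 were higher and 8 lower, where 7.36% and 9.66% of all genes tested were. Their groups lay apart for 10 higher and 16 lower, 51.0% of the 51, near the 47.4% of all genes tested (21.9% higher and 25.5% lower).
The 15 tested genes of chain folding and modification in the endoplasmic reticulum had a median difference of -0.05. Ppib, a prolyl isomerase, was at 687 and 768 RPKM in the controls and 612 and 652 RPKM in Six2-labelled cells. P4hb, a subunit of prolyl 4-hydroxylase, was at 517 and 577 RPKM against 509 and 490 RPKM. The collagen chaperone gene Serpinh1 overlapped, at 188 and 249 RPKM against 149 and 208 RPKM.
Of 8 genes of processing and crosslinking, 2 lay apart higher and 3 lower (21.9% and 25.5% of all genes tested). Pcolce, an enhancer of procollagen cleavage, was at 128 and 124 RPKM against 97.5 and 112 RPKM, and the procollagen protease gene Bmp1 overlapped at 58.4 to 77.0 RPKM. The lysyl oxidase relative Loxl3 was at 55.0 and 37.1 RPKM against 32.6 and 20.3 RPKM.
All 4 tested fibril organisers, Fn1, Sparc, Thbs1 and Tnxb, had both Six2-labelled libraries below both controls (25.5% of all genes tested), and their median difference was -1.12. Sparc, a collagen-binding matricellular protein gene, was at 287 and 250 RPKM against 142 and 160 RPKM (limma difference -0.83, SE 0.121, adjusted p = 0.108). The fibronectin gene Fn1 had 667 and 407 RPKM against 287 and 206 RPKM (adjusted p = 0.204), and the thrombospondin gene Thbs1 was at 78.3 and 41.4 RPKM against 33.8 and 19.1 RPKM (adjusted p = 0.291). Tnxb, a tenascin that binds fibrillar collagen, had the largest difference of the 4, -2.09, at 24.6 and 12.6 RPKM against 4.94 and 2.24 RPKM (limma adjusted p = 0.158).
Of 6 collagen receptor genes 2 lay apart higher and 1 lower, close to the 47.4% of all genes tested that lay apart in either direction. Itgb1, the common beta subunit of collagen-binding integrins, was at 135 and 132 RPKM against 114 and 112 RPKM, while Cd44 and the receptor kinase gene Ddr1 overlapped. Of 6 proteases 2 lay apart higher and 1 lower (21.9% and 25.5% of all genes tested): the stromelysin gene Mmp3 was at 248 and 265 RPKM against 665 and 410 RPKM (difference 1.02, SE 0.252, limma adjusted p = 0.182), and the cathepsin genes Ctsl and Ctsb differed by 0.21 (SE 0.136) and 0.12 (SE 0.227).
Of 6 tested hemidesmosome and anchoring partners, 0 lay apart higher and 2 lower (21.9% and 25.5% of all genes tested); Plec and Itga6 overlapped, and the tetraspanin gene Cd151 was at 178 and 158 RPKM against 145 and 136 RPKM. Of 6 type IV collagen partners 2 lay apart higher and 1 lower, again near the 47.4% of all genes tested: the proteoglycan gene Agrn was at 44.2 and 45.7 RPKM against 62.6 and 64.2 RPKM (limma adjusted p = 0.142), the laminin chain gene Lama5 was at 155 and 118 RPKM against 111 and 99.8 RPKM, and Lamb1 overlapped.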

How the data were processed

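Polyadenylated RNA of 4 libraries was sequenced, 2 per group, grouped by their titles. Per the submitters' processing notes, HTSeq 0.8.0 and TopHat2 2.1.1 were among the tools and GRCm38 and mm10 were the builds named; no source used here gives the annotation, the gene lengths or the strand setting. The authors deposited RPKM values, with no further scaling stated. Whole reads and read totals were recovered from the steps of these values (within 0.001 reads for 100.0% of 14459 genes above 0 in 3 or more libraries); reads of genes above 0 in fewer libraries, or sharing a factor with the length, may be understated.

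limma 3.58.1 in R 4.3.3 fitted log2(RPKM + 1) on group for genes that reached 1 RPKM in 2 libraries or more. The fit used a variance trend and two-sided tests, with Benjamini-Hochberg adjustment over all genes and a threshold of 0.05. It was also run on simulated data. These held no shift between replicate numbers, so that run does not show how the fit handles the replicate differences seen here. Members, classes and lists were chosen with earlier results of these data known. Every chain past the filter is named, and others as partners of the same type or class; the remaining low chains, and Tnxb, were named after their values were seen. From each list of companion genes the 3 tested genes of highest mean are named. Dcn, Lum and Comp stand in both a companion list and a marker list. Coordinates come from GENCODE M21 (GRCm38), matched by symbol for 44 chains; sequences come from RefSeq, GRCm38.p6. Alternatives were another pseudocount, no filter, relative log expression factors, voom on recovered reads, a replicate block, each library left out and, added after the data were seen, chromosome medians removed.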

Additional observations from a re-analysis of the deposited data

How the results depend on the processing

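No collagen chain passed with a pseudocount of 0.1, no filter, relative log expression factors, voom on recovered reads, chromosome medians removed, or without either control library or Six2 replicate 1; without Six2 replicate 2, 1 higher chain passed (Col9a1), so leaving out 1 library gave 0 to 1 higher and 0 to 0 lower chains. With a replicate block, 2 higher chains (Col9a1, Col18a1) and 5 lower chains (Col5a1, Col6a1, Col6a2, Col7a1, Col8a1) passed of the 13 tested. In that fit 2133 higher and 2506 lower genes of all 10654 tested passed, so passing was common there. It assumes that the numbers pair the libraries, which the labels do not say. Replicate differences did correlate across genes at r = 0.818 between the groups (10654 genes, not independent replicates). Over all genes, the calls were 3 higher and 9 lower, against 0 and 0 with no filter and 24 lower with relative log expression factors, and 2 to 18 higher and 9 to 50 lower when 1 library was left out. Chains with all libraries apart numbered 7 higher and 10 lower of 38 with no filter. Some of these had very few reads, such as Col26a1, with 1 read in each Six2-labelled library and 0 in the controls. With 1 library left out, 2 to 5 higher and 3 to 8 lower of the 13 tested chains lay apart. The share over all genes was not computed at these settings. With 3 libraries in all, groups lie apart more readily than with 4, so the counts with 1 library left out cannot be set against the 47.4% given for all genes tested. The count with no filter includes low genes that the 47.4% leaves out, so it cannot be set against that share either. The sign reversed for Col16a1 without control replicate 2 (-0.021 to 0.27 over the libraries left out), for Col4a6 without control replicate 1 (-0.42 to 0.035), for Col6a3 without Six2 replicate 1 (-0.069 to 0.44) and with chromosome medians removed (-0.13), and for Col4a5 without control replicate 1 and without Six2 replicate 2 (-0.26 to 0.18), with relative log expression factors (0.0011) and with chromosome medians removed (0.023); none of these chains passed in any of these fits. Of the other values for single chains, 114 kept their direction and their side of the threshold, and 8 kept their direction and passed. The median of the tested chains was 0.02 without control replicate 1 and -0.26 without control replicate 2. With 2 libraries a group, low chains are limited by both counting error and replicate spread.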

Other observations

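Several companions of collagen below the filter had all 4 libraries apart. Of 15 such genes with 10 reads or more in 1 library, 8 were lower and 2 higher in the libraries labelled Six2, where 30.1% and 17.7% of all such genes were; the genes named here were chosen after their values were seen. Lox, the crosslinking enzyme lysyl oxidase, was at 0.381 and 0.300 RPKM in the controls and 0.0406 and 0.0796 RPKM in Six2-labelled cells. Lamb3, a laminin chain that binds type VII collagen, was at 0.373 and 0.206 RPKM against 0.0144 and 0.0412 RPKM, and Nid1, which links laminin to type IV collagen, was at 0.541 and 0.363 RPKM against 0.146 and 0.164 RPKM. The collagenase gene Mmp13 lay the other way, at 0.399 and 0.402 RPKM against 0.771 and 0.697 RPKM.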
